A study of Mus musculus with 2 samples.

Results

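Cholesterol is built in the endoplasmic reticulum from acetyl-CoA, first through the mevalonate pathway to isoprenoid diphosphates, then through squalene to the sterols. Transcription of these enzymes is driven by SREBP2, which SCAP carries to the Golgi for cleavage when sterols are low and which INSIG proteins hold back when sterols are high. The enzyme genes therefore often rise and fall together, and their products feed membranes, protein prenylation and the sterol modification of hedgehog ligands, which the ureteric epithelium sends to its mesenchyme. The 8 genes described here were taken by symbol, from every gene spot of the scanner files that carried it. They were 8 of 30011 genes on the array and comprised the enzyme genes Hmgcs1, Idi1, Fdps, Fdft1, Sqle, Lss and Cyp51 and the SREBP regulator Insig1.

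The series compared ureters of NMRI mouse embryos dissected at E15.5 and kept in culture on membranes for 6 days. Mutant ureters (Fgfr1/2cDKO) carried Fgfr1(fl/fl) and Fgfr2(fl/fl) together with Tbx18(cre/+), so that Cre made from the Tbx18 locus acted in the mesenchyme around the ureteric epithelium and its descendants. Control ureters carried Fgfr1(fl/?) and Fgfr2(fl/?), with no Cre allele listed, so that loss of the FGF receptors and presence of Cre at Tbx18 cannot be told apart. Total RNA was hybridised to 2 two-colour Agilent arrays: array 1, labelled male, carried mutant RNA in Cy5 and control RNA in Cy3, and array 2, labelled female, carried the opposite dyes. The effects of replicate, of sex label and of dye cannot be told apart. The labels give neither the number of embryos per RNA nor separate litters, so the p-values rest on a spread between RNA samples that may be technical.

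Across the 4 channels 70.3% to 78.3% of gene spots passed the scanner's test for signal above background, and no gene spot was saturated. All 6 smooth muscle markers and all 8 urothelial markers passed it in both genotypes on both arrays, while of 5 hepatocyte genes Alb, Apoa1 and Cyp7a1 did not, Ttr did, and Serpina1a did in control RNA on both arrays and in mutant RNA on 1. On the log2 scale, mutant over control, the brightest of 3 tested probes of Fgfr1 gave -0.33 ± 0.15 (SD, n = 2; limma adjusted p = 0.135). The brightest of 2 tested probes of Fgfr2 rose by 0.56 ± 0.02 (SD, n = 2; limma adjusted p = 0.0309). The sources used here do not give the deleted exons, so these probes check nothing about the deletion.

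None of the 8 cholesterol synthesis genes passed the test between mutant and control ureters. Log2 ratios of mutant over control ran from -0.25 for Cyp51 to 0.28 for Sqle, with a median of -0.01 against -0.02 over all genes tested. limma called 0 of 8 at an adjusted p below 0.05, and 0 of 8 had an unadjusted p below 0.05, against 4955 of all 22070 genes (22.5%). Of all genes tested, 835 were called (3.78%), 447 lower (2.03%) and 388 higher (1.76%). The 95% intervals of the 8 genes each included a fold of 1 and had their lowest bound at 0.692, for Insig1, and their highest at 1.54, for Sqle. Each of the 8 ratios was higher on array 2 than on array 1, which held for 54.7% of all genes tested. For Lss the difference was only 0.06. With each array centred on its median instead, 6 of 8 were higher on array 2.

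Promoter sequences of 5 of the 8 genes were found in RefSeq (build GRCm38.p6), namely those of Hmgcs1, Idi1, Lss, Cyp51 and Insig1. They are shown because the sterol response is read from such sequence, and the 250 bases before each start were searched on both strands for the sterol regulatory element TCACNCCAC, the CCAAT box CCAAT, where NF-Y, a cofactor of SREBP, binds, and the E-box CACGTG. In these promoters no match of one motif overlapped that of another. Each line gives a stretch of 70 bases, 5′ to 3′ on the gene's strand, with the matched motif in capitals on either strand, so that ATTGG is a CCAAT box on the other strand.
Hmgcs1, chr13:119690194-119690263, plus strand: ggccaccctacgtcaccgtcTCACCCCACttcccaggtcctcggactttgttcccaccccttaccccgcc
Idi1, chr13:8885536-8885605, plus strand: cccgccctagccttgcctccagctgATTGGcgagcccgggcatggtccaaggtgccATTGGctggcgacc
Lss, chr10:76531523-76531592, plus strand: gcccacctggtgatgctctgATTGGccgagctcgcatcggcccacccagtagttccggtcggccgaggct
Cyp51, chr5:4104698-4104767, minus strand: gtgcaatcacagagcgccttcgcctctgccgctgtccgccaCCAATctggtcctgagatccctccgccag
Insig1, chr5:28071176-28071245, plus strand: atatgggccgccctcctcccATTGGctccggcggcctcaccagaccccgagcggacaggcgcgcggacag

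The CCAAT box was present in 5 of 5 of these promoters and in 33.8% of all 32851 promoters of that length. Idi1 held it at positions -45 and -14 from the start, Lss at -62, Cyp51 at -29, Insig1 at -216 and Hmgcs1 at -237, -176 and -45. The sterol element was matched in Hmgcs1 alone, at -137, against 1.05% of all promoters, and the E-box in Insig1 alone, at -101, against 6.02%. A match is a description of letters, and a window without one says only that these letters are not in it.

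Among the genes of the mevalonate part, Hmgcs1 encodes the synthase that makes HMG-CoA, an early intermediate of the pathway. Its brighter probe, A_55_P2032966, lies on chr13_random at bases 114793-114852 of mm9. The normalised signal is in arbitrary units, with the mean of both channels scaled between arrays. It was 45006 in mutant and 56056 in control on array 1, and 69803 in mutant and 57810 in control on array 2. The mutant signal was thus the lower of the pair on array 1 and the higher on array 2, while the control signals lay close to each other. The log2 ratios were -0.32 and 0.27, with a mean of -0.02 ± 0.42 (SD, n = 2; limma adjusted p = 0.946). Spots of array 1 lay between -0.331 and -0.302, and the 3 spots kept on array 2 between 0.262 and 0.281. Replicate spots of an array thus differed far less than the arrays did. The other Hmgcs1 probe, A_55_P1954569, was dim, with signals of 144 to 196, and gave -0.42 and 0.04.

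Idi1 encodes the isomerase that interconverts the isoprenoid building blocks. Its probe, on chr13 at 8891524-8891583 of mm9, gave signals of 10644 in mutant and 11734 in control on array 1, and of 13549 and 11349 on array 2. The ratios, -0.14 and 0.26, again lay on either side of 0, with a mean of 0.06 ± 0.28 (SD, n = 2; limma adjusted p = 0.825). Fdps encodes farnesyl diphosphate synthase, at the point where the path to sterols parts from that to prenylated proteins. Its probe, on chr3 at 88897549-88897608, gave 30788 in mutant and 34811 in control on array 1, and 34985 and 31019 on array 2. The levels were close to mirror images, with ratios of -0.18 and 0.17. The mean was -0.0018 ± 0.25 (SD, n = 2; limma adjusted p = 0.996, 95% interval -0.28 to 0.27).

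**Figure D1:**
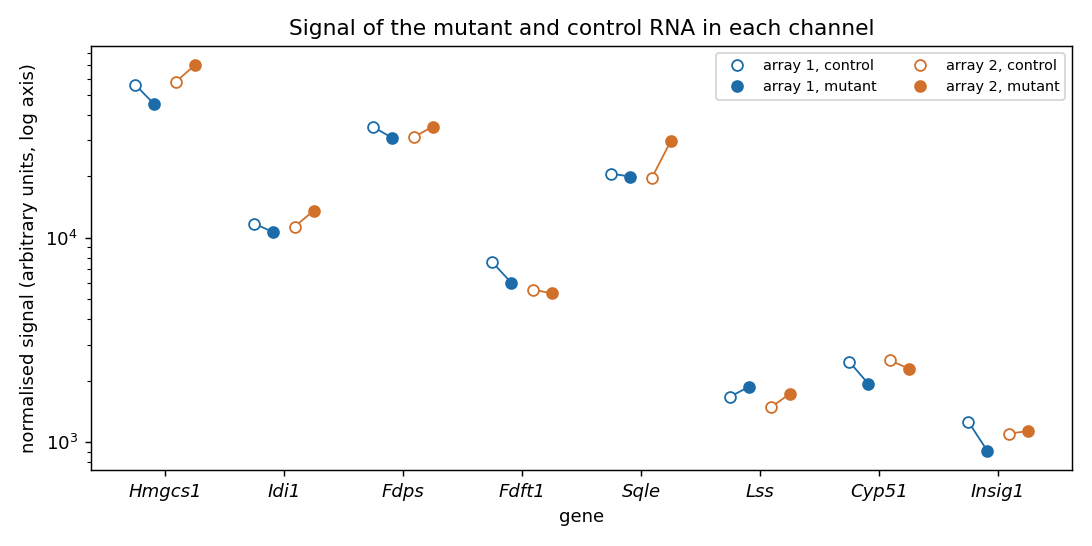
Normalised signal (arbitrary units, log axis) of control (open) and mutant (filled) RNA for the 8 genes on array 1 (blue) and array 2 (orange), 1 probe per gene, lines joining the channels of an array. The mutant point is below the control point on array 1 for every gene but Lss, and on array 2 for Fdft1 and Cyp51; heights are not comparable between genes, since each probe binds differently.

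Fdft1 encodes squalene synthase, the first enzyme committed to sterols. Its brighter probe, A_55_P2033250, aligns across a gap between 63765750 and 63769990 of chr14 in mm9. Signals were 6022 in mutant and 7599 in control on array 1, and 5345 and 5581 on array 2. The mutant was the lower of each pair, by 0.34 on array 1 and by 0.06 on array 2 on the log2 scale. The mean of -0.20 ± 0.19 (SD, n = 2) missed the threshold (limma adjusted p = 0.342, 95% interval -0.46 to 0.06). The other probe, A_52_P136138, was dim, with signals of 129 to 149, and gave -0.01 and -0.02.

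Sqle encodes squalene epoxidase, a rate-limiting step of the sterol branch, and had both the highest mean of the 8 and the widest gap between the arrays. Its probe lies on chr15 at 59162688-59162747 of mm9. On array 1 the signals were close, 19918 in mutant and 20571 in control. On array 2 they were 29706 and 19588, so that only the mutant signal of array 2 stood apart from the other channels. The ratios were -0.05 and 0.60, with spots from -0.169 to 0.015 on array 1 and from 0.539 to 0.695 on array 2. The mean of 0.28 ± 0.46 (SD, n = 2) had a 95% interval of -0.07 to 0.63 and a limma adjusted p of 0.321.

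Lss encodes lanosterol synthase, which closes the sterol rings. It was the single gene of the 8 with ratios above 0 on both arrays, 0.16 and 0.22, and the one whose spots overlapped between arrays (0.093 to 0.208, and 0.133 to 0.286). Signals of its probe, on chr10 at 76015992-76016051 of mm9, were 1871 in mutant and 1671 in control on array 1, and 1725 and 1479 on array 2. The mutant exceeded the control by a like amount each time. The mean of 0.19 ± 0.04 (SD, n = 2) had a limma adjusted p of 0.318, in a fit that draws each gene's spread towards that of all genes. Cyp51 encodes the lanosterol demethylase that acts on the product of Lss. Its probe, on chr5 at 4081471-4081530, gave 1932 in mutant and 2469 in control on array 1, and 2289 and 2516 on array 2. The mutant was lower on both, with ratios of -0.35 and -0.14. The mean was -0.25 ± 0.15 (SD, n = 2), and the 95% interval of -0.50 to 0.01 still included 0. Among the 8 genes this was the smallest p, 0.0562 before adjustment by limma and 0.237 after it.

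Insig1 encodes the sterol-regulated anchor that retains SCAP and SREBP in the endoplasmic reticulum, and is itself an SREBP target. Its probe lies on chr5 at 28404246-28404305 of mm9. Signals were 906 in mutant and 1259 in control on array 1, and 1132 and 1102 on array 2. On array 1 the mutant channel was the lowest of the set and the control channel the highest. The ratios were -0.47 and 0.04, with a mean of -0.22 ± 0.36 (SD, n = 2; limma adjusted p = 0.381, 95% interval -0.53 to 0.09). The 4 array 1 spots lay within -0.480 to -0.461, and those of array 2 ran from -0.037 to 0.160.

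**Figure D2:**
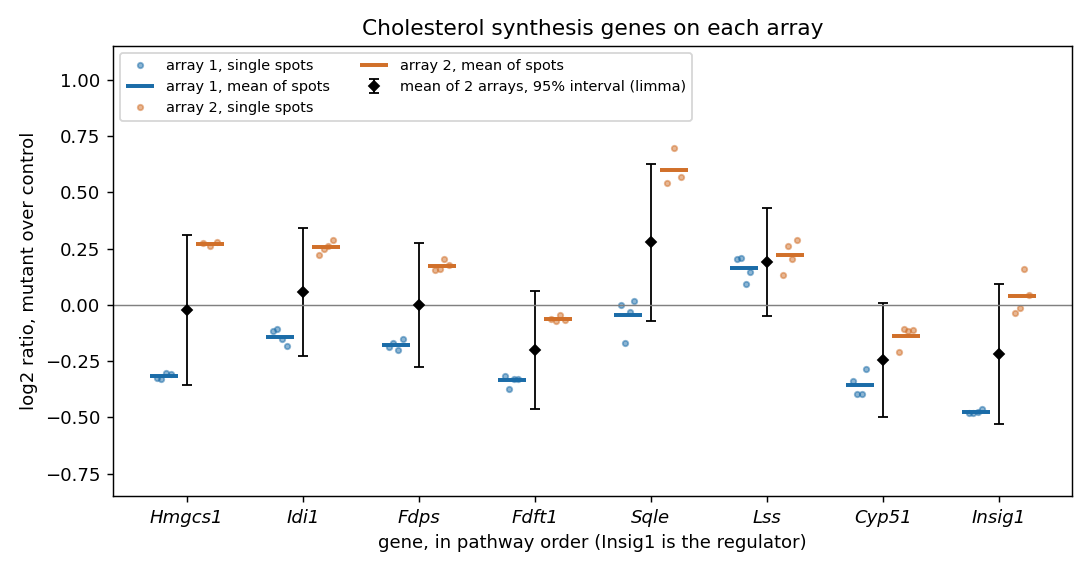
Log2 ratio of mutant over control for each gene in pathway order: small points are single spots, bars the mean of the spots of array 1 (blue) and array 2 (orange), and diamonds the mean of both arrays with the 95% interval of limma. Every interval includes 0, and the orange bar is above the blue one for all 8 genes.

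On array 1, 7 of 8 ratios were below 0, with a median of -0.25, and on array 2, 2 of 8 were, with a median of 0.20. The medians of all genes tested were -0.03 and -0.0027. Fdft1 and Cyp51 were below 0 on both arrays, Lss above 0 on both, and the other 5 were on opposite sides, which held for 33.5% of all genes. The ratio of array 2 exceeded that of array 1 for 8 of 8 genes and for 54.7% of all genes. The difference had a median of 0.37 over the 8 genes and of 0.03 over all genes. It was 0.65 for Sqle, above that of 99.1% of all genes, 0.59 for Hmgcs1 (98.5%) and 0.51 for Insig1 (97.3%). Idi1 (0.40), Fdps (0.35), Fdft1 (0.27) and Cyp51 (0.22) lay between, and Lss, at 0.06, was near the middle of the table. The ranges of single spots did not overlap between arrays in 7 of 8 genes and in 58.3% of all genes. From array 1 to array 2 the mutant signal was higher in 6 of 8 genes (54.5% of all genes). The control signal was lower in 6 of 8 (48.2% of all genes). Both signals were rebuilt from the ratio and the scaled mean of the channels, so these counts partly restate the ratio difference.

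**Figure D3:**
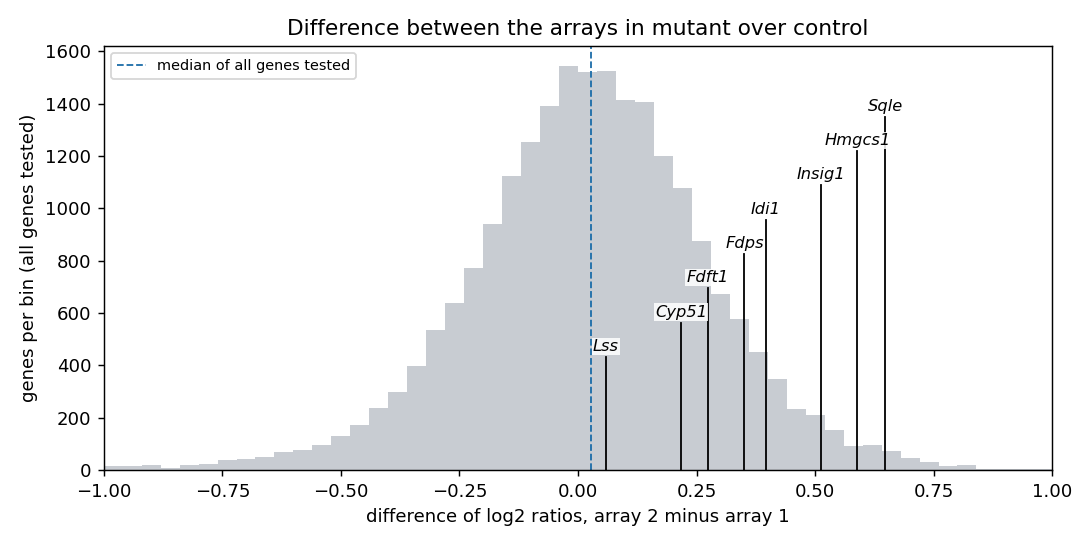
Histogram of the difference between the log2 ratios of array 2 and array 1 for all 22070 genes tested (grey, genes beyond 1 in either direction not drawn), with their median as a dashed line and each of the 8 genes as a labelled vertical line whose height has no meaning. All 8 lines lie to the right of the median, from 0.06 for Lss to 0.65 for Sqle.

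Set as Cy5 over Cy3, the same values were below 0 on both arrays for 5 of 8 genes and for 19.1% of all genes. limma on Cy5 over Cy3 called 0 of 8 genes and 0 of 22070, with 0 of 8 and 77 of 22070 (0.349%) at an unadjusted p below 0.05. Dye orientation, the sex label and the replicate change together between the arrays, so their parts in this difference cannot be told apart.

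The difference between the arrays also moved with the normalisation. The values above came from loess, which fits each array's dye bias as a curve over spot brightness. When each array was instead centred on its median, the ratios of Hmgcs1 were -0.27 and -0.42 and those of Fdps -0.19 and -0.39, so that both were lower on array 2. The spots of these 2 genes were the brightest of the 8, at the 96.9 and 94.1 percentiles of all genes tested, a value that mixes probe and RNA and ranks no expression. Array 2 then exceeded array 1 in 6 of 8 genes and in 48.0% of all genes, and the median difference of the 8 fell from 0.37 to 0.18. Insig1 kept a wide gap, -0.66 against -0.14, whereas Sqle gave -0.12 and 0.11. With median centring 6 of 8 genes were below 0 on both arrays, all but Sqle and Lss, against 53.2% of all genes. The median over the 8 genes was -0.32, but that of all genes was -0.14 under the same centring, which leaves -0.18 relative to it. limma again called 0 of 8, with 3 of 8 genes and 25.3% of all genes at an unadjusted p below 0.05. The lowest limma adjusted p among the 8 was 0.134, for Cyp51, whose mean was then -0.44.

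**Figure D4:**
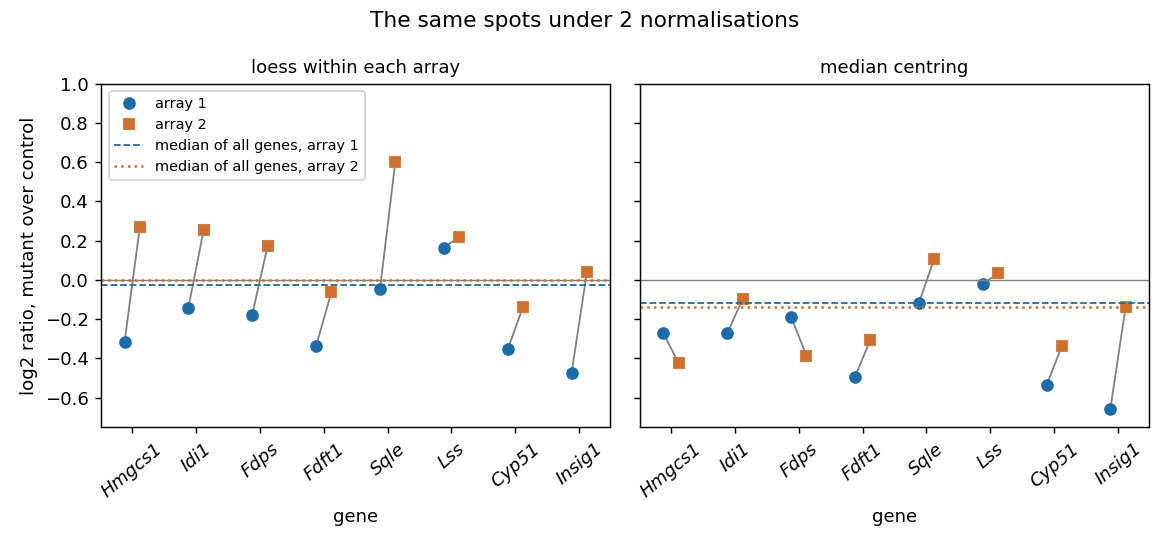
Log2 ratio of mutant over control on array 1 (blue circles) and array 2 (orange squares) for the 8 genes after loess (left) and after median centring (right), with the medians of all genes tested as dashed and dotted lines. The arrays lie on opposite sides of 0 for 5 genes on the left and for Sqle and Lss on the right, and Hmgcs1 and Fdps change the order of the arrays.

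A list of 16 other genes of sterol and isoprenoid synthesis was measured as well. In it, 0 of 16 were called in either direction, with 6 of 16 at an unadjusted p below 0.05 in limma, beside 22.5% of all genes. Their median was -0.04. Of these, 6 were below 0 on both arrays, 3 above 0 on both and 7 on opposite sides, and 11 of 16 were higher on array 2, by a median of 0.30 over the 16. Mvk, the kinase that phosphorylates mevalonate, gave 0.23 and 0.56, a mean of 0.40 ± 0.23 (SD, n = 2; limma adjusted p = 0.104), and its second probe a mean of 0.15. It was above 0 on both arrays, with the higher value on array 2. Nsdhl, a sterol dehydrogenase after Cyp51, gave -0.32 and -0.37, a mean of -0.34 ± 0.04 (SD, n = 2; limma adjusted p = 0.109), whereas its second probe gave 0.05.

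Of the 10 genes that control SREBP, 0 were called, 2 of 10 had an unadjusted p below 0.05 in limma (22.5% of all genes), and the median was 0.11. Mbtps1, a Golgi protease that cuts SREBP, gave 0.12 and 0.72, a mean of 0.42 ± 0.42 (SD, n = 2; limma adjusted p = 0.144), and its second probe a mean of 0.31. Scap, the escort, gave 0.18 and 0.47, a mean of 0.33 ± 0.21 (SD, n = 2; limma adjusted p = 0.150). Srebf2, which encodes SREBP2 and was chosen after its values were seen, gave -0.48 and 0.51 with its brighter probe, a mean of 0.02 ± 0.70 (SD, n = 2; limma adjusted p = 0.973). Its second probe gave -0.22 and -0.28, so the probes of this gene disagreed on array 2.

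Cholesterol uptake and transport had 0 genes called among 12 tested of 13, with a median of 0.06 and 9 of 12 higher on array 2. In limma 0 of 12 had an unadjusted p below 0.05, against 22.5% of all genes. Among the smallest p of that list, Vldlr, a lipoprotein receptor, had a mean of 0.29 ± 0.38, Gramd1a, a sterol carrier, of 0.21 ± 0.03, and Npc2, the lysosomal sterol carrier, of -0.18 ± 0.07 (SD, n = 2 each; limma adjusted p = 0.261, 0.267 and 0.355). A second probe of Vldlr had a mean of 0.01. The side branches of the mevalonate path had 0 of 13 genes called, 3 of 13 at an unadjusted p below 0.05 in limma, which is near the share of all genes, and a median of 0.00. Pdss1, which makes the tail of coenzyme Q, was lowest at -0.36 ± 0.02 (SD, n = 2; limma adjusted p = 0.0932). Icmt, which methylates prenylated proteins, had a mean of 0.32 ± 0.29 and Coq2, of coenzyme Q synthesis, of 0.24 ± 0.08 (SD, n = 2 each; limma adjusted p = 0.186 and 0.221). Other probes did not bear these values out: those of Icmt had means of -0.14 and -0.32, and that of Coq2 a mean of 0.0011.

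In the neighbouring lipid lists, 1 of 12 tested genes of sterol efflux and storage and 2 of 13 of fatty acid synthesis were called. All of them were lower in mutant ureters, a call that 2.03% of all genes had. At an unadjusted p below 0.05 in limma were 4 of 12 and 4 of 13, beside 22.5% of all genes. Of 12 tested genes of sterol efflux and storage, with a median of -0.19, Nr1h3 fell by 0.95 ± 0.40 on the log2 scale (SD, n = 2; limma adjusted p = 0.0196). It encodes the oxysterol receptor LXR alpha, and its second probe gave a mean of -0.82. Of 13 genes of fatty acid synthesis under SREBP control, with a median of 0.00, Thrsp fell by 2.36 ± 0.83 and Scd1, the stearoyl-CoA desaturase, by 1.76 ± 0.89 (SD, n = 2 each; limma adjusted p = 0.00742 and 0.0155). Thrsp encodes a lipogenic protein of adipose tissue. With median centring 0 of 22070 genes were called, these included, and the lowest limma adjusted p was 0.120.

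Of 8 markers of fat cells 7 were tested, and 6 of 7 were called lower, against 2.03% of all genes, with a median of -1.90. Pparg was above 0 on both arrays, at 0.15 and 0.25, a mean of 0.20 ± 0.07 (SD, n = 2; limma adjusted p = 0.309). The summed signal of the 7 tested markers was 52817 in mutant and 88218 in control on array 1, and 26381 and 73001 on array 2. Lep was not well above background in control RNA on either array. Macrophage markers were called lower in 2 of 6, with a median of -0.36. Their summed signals were 66599 in mutant and 76905 in control on array 1, and 42817 and 60824 on array 2. Of these markers, Lyz2 gave 0.15 and -0.93 and Adgre1 0.04 and -0.71, on opposite sides of 0. A second probe of Adgre1 gave -0.40 and -0.71. Endothelial markers were called lower in 4 of 6 (median -0.56). Urothelial markers were called higher in 3 of 8 (median 0.45), against 1.76% of all genes. Krt5 of that list went the other way, at -0.25 and -0.68, a mean of -0.46 ± 0.30 (SD, n = 2; limma adjusted p = 0.0833). Its second probe gave 0.14 and -0.23. Of the smooth muscle markers 0 of 6 were called (median 0.04, with 1 at an unadjusted p below 0.05 in limma). Whole ureters were measured, so fewer cells of a type and less RNA per cell cannot be told apart. Adipocyte sums were lower in mutant RNA on array 2, at 0.361 of control, than on array 1, at 0.599, while the ratios of all 8 cholesterol genes were higher there. Such sums, also those of the macrophage markers, weigh bright probes most. The median log2 ratios of the adipocyte markers were -1.15 on array 1 and -2.83 on array 2. The part of any cell type in the ratios of the 8 genes was not tested.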

How the data were processed

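Total RNA of cultured ureters, 150 ng per labelling, was measured on 2 dye-swapped arrays of the same slide and scan. The deposited scanner files hold intensity values, for which the submitters' processing notes name Agilent Feature Extraction 10.7.3.1. Per the file headers, that software also wrote their log10 ratios and the flags for spots well above background. The value table that the authors deposited gives each probe a score in the form of a fold with a sign; its scale and direction (mutant over control) were worked out against the scanner values, at r = 0.85 and -0.85 with red over green across 39429 probes, with a median of 1 on both arrays. A size of exactly 1 was entered for 8097 probes of array 1 and 9100 of array 2; the reason and the centring are unknown, and calls and signs taken from it carry that limit. Per the file headers, coordinates of probes refer to mm9, and what the annotation places there was not determined here.

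Mean signals were background-corrected by normexp with an offset of 50 and normalised by loess within each array in limma 3.58.1 (R 4.3.3), with control and outlier spots left out (3.17% and 3.65% of gene spots were outliers, 3 of them spots of the 8 genes). The 4 spots of a probe were averaged. Aquantile scaled the mean log2 signal of both channels between arrays and left the ratios unchanged. Channel signals were rebuilt from that mean and the ratio. A probe was tested if, in 1 genotype or both, a share over 0.5 of its spots was well above background on each array, leaving 22070 genes, each by its brightest probe. All 10 probes of the 8 genes passed in both genotypes. Ratios were set against 0 in a two-sided test with lmFit and eBayes, adjusted over all genes by Benjamini-Hochberg, at a threshold of 0.05. The fit was also run on simulated ratios, drawn independently for each gene, with few genes changed and no dye, sex or replicate effect. That setting differs from these data, so it does not check the calls made here. Of 39429 probes, 28328 were named by accession, 3400 by symbol and 7701 as in the file. The 8 genes and the lists were chosen with earlier results of these data known. Named are the 8 genes, the 4 smallest p of the other synthesis genes, and in each further pathway list the genes called or the 3 smallest p; exceptions are marked. Some genes that this rule names are not reported here. Alternatives covered background, normalisation, filter, probe rule, variance model and the authors' table.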

Additional observations from a re-analysis of the deposited data

Results flagged for a closer look

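The ratios of 5 genes lay on opposite sides of 0 on the arrays labelled male and female, which also carried opposite dyes. As array 2 minus array 1 on the log2 scale, the difference was 0.65 for Sqle, 0.59 for Hmgcs1, 0.51 for Insig1, 0.40 for Idi1 and 0.35 for Fdps. A difference between the sexes was not tested, since each label had 1 array, and sex, dye and replicate cannot be told apart. With median centring Hmgcs1, Insig1, Idi1 and Fdps were below 0 on both arrays, and Sqle stayed on opposite sides.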

How the results depend on the processing

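None of the 112 values of the 8 genes under 14 alternatives was called, with a lowest adjusted p of 0.134, and 6 changed sign. These were with median centring, Sqle (-0.0066) and Idi1 (-0.18), with the scanner software's processed signals, Hmgcs1 (0.00055) and Fdps (0.0067), and with the authors' value table, Hmgcs1 (0.012) and Fdps (0.020); the cause was not tested. The ratios of the 8 genes, and so their signs, were fixed with another filter or variance model, probe by probe and with separate channels. The mean over probes could move only those of Hmgcs1 and Fdft1. The 16 other synthesis genes had 0 called throughout. Over all genes, 835 calls became 10 with processed signals (4616 at an unadjusted p below 0.05), 1279 with an offset of 10, 0 with median centring (5583 unadjusted), 1468 probe by probe, 1411 with an intensity trend in eBayes, 214 with separate channels and the array as a block, 170 with the authors' table and 0 as Cy5 over Cy3 (77 unadjusted). The median of the 8 genes was -0.25 to 0.20 with either replicate left out, which gives no test. The count of genes higher on array 2, chosen after seeing the data, was 8 under every alternative that gives it except median centring, at 6. With another filter and probe by probe, the ratios of both arrays were unchanged, so that count was fixed in advance. The number of arrays, 2, limits the precision, and the authors' table holds many probes at exactly 1 for an unknown reason.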
